A study of Salix matsudana with 3 samples.

Results

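The degradome library of Salix matsudana, the Chinese willow, is 1 of the 3 libraries of the study. It is described here by every row of its table, which pairs a miRNA entry with a cleavage position listed on a target transcript. Whether each listed position reflects cutting guided by that miRNA was not tested. The table held 981 lines, and collapsing 13 exact repeats left 968 distinct lines for 100 miRNA entries in 43 numbered families and 16 predicted entries, whose names begin with PC. The degradome RNA was a mixture of RNA from salt-treated plants (NaCl at 100 mmol per litre, 2 days) and from untreated plants, all 30 days old, with roots and stems as the tissue. Each of those conditions also has 1 small RNA library, and the series title names salt-responsive miRNAs and their target genes as its subject. Because the degradome RNA was mixed, a cut cannot be assigned to either condition or to roots or stems. There was 1 library of each kind, so no value below has a replicate check and no test between conditions was made.

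Plant miRNAs guide an ARGONAUTE protein to messenger RNAs with near-complete complementarity, and the messenger is cut opposite the middle of the miRNA. The 3′ fragment keeps a free 5′ phosphate, and degradome sequencing reads these ends, so that a pile of reads starting at one base marks a cut. Many conserved families act on transcription factors and hormone receptors of plant development, and others on genes of nutrient supply, silencing and defence.

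A cleavage event is defined here as a target symbol (ignoring case), a position on its transcript and a raw number of degradome reads, whatever the number of miRNA entries listed for it. Lines collapsed to 657 events. Of these, 481 events carried a gene symbol, 97 a locus identifier in place of a symbol and 79 only a dash. The names numbered 190, made up of 155 symbols and 35 locus identifiers. Targets with a dash cannot be told from each other, so those with the same position and reads were joined into 1 event. Locus identifiers are printed without a role, since no annotation was paired with them here. Positions count from the start of a target transcript whose identifier and length were not part of the table.

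The mature miRNAs that lead the results, and those compared in shifted registers, are printed 5′ to 3′ as DNA letters from the deposited small RNA table, with the seed, bases 2 to 8, in capitals. The entry gma-miR393a has the same sequence as mes-miR393c_R-1, and ptc-miR160e-5p_L+1R-1 the same as ahy-miR160-5p_L+1R-1. The first 8 are, in their families, the listed entries with most small RNA reads.
gma-miR393a: tCCAAAGGgatcgcattgatc
ptc-miR160a: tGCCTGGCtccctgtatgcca
ptc-miR172g-3p: gGAATCTTgatgatgctgcag
ptc-miR166a: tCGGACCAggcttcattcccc
ppe-miR395c: cTGAAGTGtttgggggaactc
ptc-miR394a-5p: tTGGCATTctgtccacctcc
ptc-miR1448_L+1R+1: tCTTTCCAacgcctcccatacc
ptc-miR1444a_R+1: tCCACATTcggtcaatgttcg
ptc-miR160e-5p_L+1R-1: cTGCCTGGctccctgaatgcc
ghr-miR156a_R+1: tGACAGAAgagagtgagcact
ptc-miR156g_R+1: tTGACAGAagatagagagcact
mes-miR396c: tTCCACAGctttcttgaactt
hbr-miR396a_R-3: cACAGCTTtcttgaactt
ptc-miR3627a_R+1_1ss20TC: tCTGTCGCtggaaagatggcacc
ptc-miR3627b_1ss7AG: tGTCGCGGgagagatggcgcta

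The 100 entries held 94 distinct sequences and 76 distinct seeds. Among them, 5 miR172 entries shared the seed GAATCTT and the 3 miR395 entries the seed TGAAGTG. No seed was shared by different numbered families.

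The table's second measure, headed TPB, was set beside the raw reads to look for reads listed in several places. Divided by the raw reads of its line, TPB never exceeded 52.65, and 1000000000 divided by that value gave 18992048, whole to within 3.7e-08. The sources used here do not say what this total counts, nor what TPB stands for. Each line's TPB was lower than 52.65 per read by a factor, called the divisor here, that ran from 1 to 10 and was whole to within 1e-06 in 80.3% of lines (777 of 968). Only 57 events had a divisor of 1, and 169 had a divisor of 10, the highest value found.

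Events of a family with the same reads and TPB were grouped into read sets. Among 75 read sets with at least 5 reads and a whole divisor, the number of listed positions equalled the divisor in 54, was lower in 21 and was higher in none, when exact repeats were counted as positions. With repeats collapsed the equal sets numbered 48. For divisors below 10, 53 of 60 sets were equal, and for a divisor of 10 it was 1 of 15. The single equal set at 10 was that of ATP sulfurylase, where 9 distinct positions and a repeated APS1 line at position 375 made up 10. Repeated lines likewise completed the sets of TCP3 and TCP4 at 29 reads and of the miR1444 targets at 111 and at 18 reads. Whether each repeat is a further transcript with the same position was not tested, since transcript identifiers were not part of the table.

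**Figure D1:**
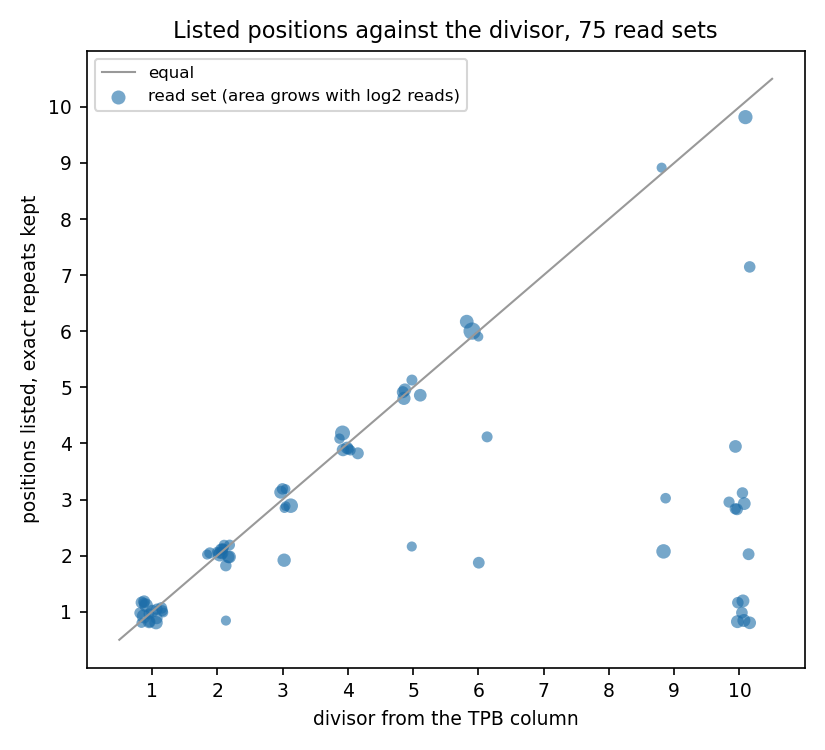
Number of positions listed for a read set (y axis, exact repeats kept) against the divisor found from the TPB column (x axis), for 75 read sets with at least 5 reads and a whole divisor, with points moved slightly so that they do not overlap. Sets on the line, 54 of 75, list as many positions as the divisor, none lies above it beyond that shift, and 14 of the 15 sets at a divisor of 10 lie below it.

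Summed over events, the reads came to 23194, and with each event's reads divided by its divisor they came to 4729, a ratio of 4.90. Reads per event ran from 1 to 1137 with a median of 3. Events with a single read made up 31.5% (207 of 657, 95% exact Clopper-Pearson interval 28.0 to 35.2%). The 41 events with at least 100 reads, 6.24% of all, held 74.5% of the summed reads. The intervals reflect counting error alone. They are too narrow, since PCR copies of a molecule are not independent and the same reads were listed at several positions.

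The families differed widely in reads. Of 43 numbered families, 19 had at least 100 summed reads, 12 had at most 10, and in 8 no event exceeded 1 read. The miR393 family held 48.3% of summed reads (11200 of 23194, 95% exact interval 47.6 to 48.9%) and 39.3% of divided reads. That interval counts the same reads once for each listed position, so it understates the uncertainty, and the divided share lies outside it. The miR393 family was followed by miR160 with 2572 summed and 399 divided reads and by miR172 with 2497 summed and 718 divided reads. The order of these families thus turned with the measure, and the 3 together held 70.1% of summed and 62.9% of divided reads.

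**Figure D2:**
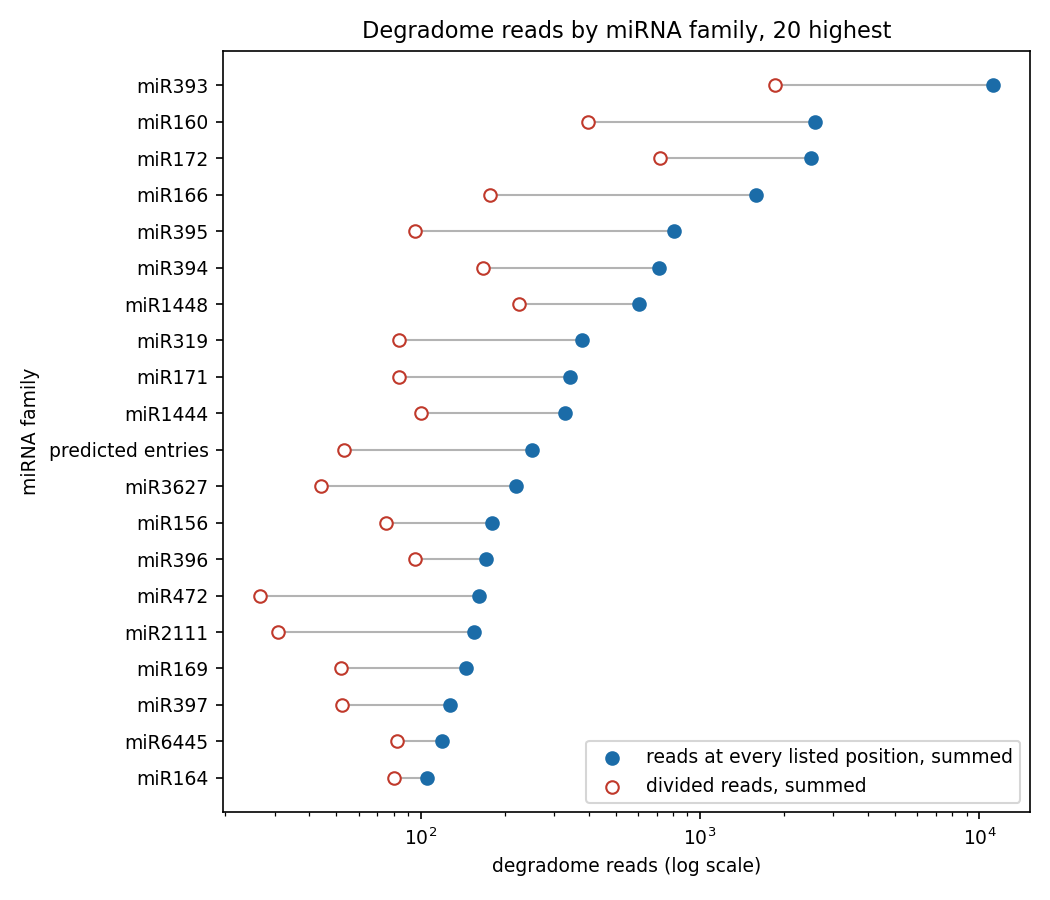
Degradome reads of the 20 families with most reads (y axis) on a log scale (x axis), filled points for reads summed over every listed position and open points for divided reads. The miR393 family leads on both, at 11200 and 1858, while miR172 passes miR160 on divided reads.

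Targets in auxin signalling had the most degradome reads of any class. Reads do not measure how often a transcript was cut, since no transcript level was set beside them. The miR393 family is known to act on TIR1 and AFB proteins, the F-box receptors of auxin. One set of 1137 reads was listed at 6 positions, in AFB2 at 1472, 1539, 1852, 1958 and 3030 and in TIR1 at 1288, with a divisor of 6. A further 667 reads stood at AFB2 positions 1272, 2010 and 2024 and in Os05g0150500 at 1984, and 665 reads at AFB2 positions 1271 and 2916, all with the same TPB. TIR1 alone had 60 reads at each of 6 positions, with a score of 1 against 2 for the larger sets. BHLH78 at 412, named for a basic helix-loop-helix factor, had 19 reads, a divisor of 1 and a score of 4. The 17 AFB2 and TIR1 positions above 1 read thus carried only 4 different read numbers.

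Auxin response factors were listed for miR160, which is known to repress members of this class. The entry ptc-miR160a had 235 to 237 reads at 9 positions, in ARF18, ARF16 and ARF8, with divisors between 8.93 and 8.98. ARF17 had 80 reads at 1449 and 1469 and 39 reads at 682, 960 and 1514, all with a score of 0.5, the lowest of any target with more than 1 read. ARF10, ARF18 and ARF2 shared 36 reads with a divisor of 3. Thus a single read number covered up to 3 ARF symbols, and the symbol alone does not tell which ARF transcript the reads came from. The family miR167, whose textbook targets are also ARFs, had 2 events, each with 1 read and no symbol.

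AP2-like factors, which govern flower organs and the change to adult growth, were the main miR172 targets. AP2 had 510 reads at positions 1701, 1934, 1953 and 2084, with a divisor of 4.003. RAP2-7 had 86 reads at 1202 and 1644, 31 reads at 3 positions and 28 reads at 2 positions, and TOE3 had 22 reads at 1917 and 2276. AP2 at 1542 and RAP2-7 at 1503 shared 17 reads with a divisor of 2. Other miR172 events were weak: ANN2, an annexin, had 4 reads at 2 positions, and MSSP2, a sugar transporter of the vacuole membrane, had 1 read at 9 positions, all listed for the 5p arm aly-miR172b-5p.

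HD-ZIP III factors, which pattern leaves and vascular tissue, took all 46 miR166 events, with 1585 summed but only 177 divided reads. ATHB-14, ATHB-9 and HOX32 shared 109 reads at 5 positions, with 108 at a further ATHB-14 position and 106 at ATHB-14 943 and ATHB-9 1070. REV had 29 to 36 reads at 11 of its 12 positions, all with a divisor of 10, and 9 reads at 1354, shared with HOX10 at 1355. ATHB-15 ran from 8 to 20 reads over 14 positions and ATHB-8 from 11 to 18 over 11. Raw reads at ATHB-14, ATHB-9 and HOX32 thus stood above those of REV, and 11 of the 12 REV positions stood above ATHB-15 and ATHB-8. REV at 1354, with 9 reads, lay within the ATHB-15 range. Apart from REV 1354 and HOX10, divisors ran from 8.91 to 10, so these positions are not separate measurements.

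Of 24 miR156 events, 20 lay in SPL factors, which promote the adult phase. SPL6 had 19 reads at 5 positions, SPL16 had 12 and 8 reads at neighbouring bases, and SPL12 had 11 at 1912, shared with SPL3 at 1930. TCP factors, which limit cell division in leaves, were listed for miR319, with 29 reads in TCP3 and TCP4 and 26 or 27 at 6 TCP2 positions. Scarecrow-like GRAS factors took all 21 miR171 events, led by 46 reads shared between SCL27 at 1106 and SCL6 at 1313. GAM1, a GAMYB factor, was the only symbol of miR159, which had 33 summed reads in 6 events. The last value is low beside the level of miR159 in the small RNA libraries, given below.

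Growth-regulating factors, which drive leaf and root growth, were listed for miR396 with 47 reads in GRF1 at 589 and 17 and 9 in GRF4, each with the score of 4. The same family had 33 further events, among them 13 in RD21A, RD21B and RD21C, cysteine proteases, with 1 to 7 reads. NAC factors act in organ boundaries and stress. NAC100 had 56 reads at 1000 and 19 at 1006 for miR164, both with a divisor of 1. For miR6445, NAC089 had 32 reads at 134 with a divisor of 1 and 34 at 132, which it shared with an unnamed target, and NTL9 had 15 at 184.

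In nutrient supply, APS1 and APS3, the ATP sulfurylases of sulphate assimilation, had 84 reads at 9 positions for miR395, and SULTR2;2, a sulphate transporter, had 2 reads at 141. UBC24, the ubiquitin-conjugating enzyme also called PHO2, took all 14 miR399 events with 1 to 3 reads. FBX6, an F-box protein of leaf development, had 157 reads at 4 positions for miR394 with a divisor of 4. WRKY19 followed for the same miRNA with 14 reads at 6 positions and the score of 4. NF-YA subunits, which bind CCAAT boxes, had 28 reads in NFYA7 and NFYA1 for miR169. All miR169 events were listed for ptc-miR169ab_1ss11AT, which had 0 and 1.5 estimated small RNA reads in the salt and untreated libraries, while ptc-miR169ac_R+2, with 1698 and 20919, had no line.

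Copper enzymes gave a mixed picture. Laccases, which polymerise lignin, took all 14 events of miR397, led by 21 reads at 2 LAC5 positions and 10 reads at 5 LAC2 positions. The single event of miR398 also lay in a laccase, LAC9 at 21, with 78 reads and a divisor of 1. The textbook targets of miR398 are copper superoxide dismutases, and no event carried a CSD symbol. PAA2, a copper-transporting ATPase, had 1 read at each of 3 positions for miR408.

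In silencing, DCL1, which makes miRNAs, had 5 reads at 3 positions for miR162, and AGO2 had 25 reads at 2 positions for miR403. For miR3630, events in AGO4A, AGO4, AGO16 and AGO9 had 4 reads at 8 positions with a divisor of 8. Among resistance genes of the NB-LRR type, RGA2 at 615 had 306 reads and RPP8L4 at 210 had 285 for miR1448, with divisors of 2.54 and 2.87 and the score of 4. They were the most heavily read targets at that score. The 23 events of miR472 had 1 to 13 reads in RFL1, RPS2 and 7 locus identifiers, with 26.6 divided reads in all.

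ACA10, ACA13, ACA8 and ACA9, calcium pumps, shared 42 reads at 5 positions for ptc-miR3627a, a divisor of 5. At3g27150 and At1g74510 shared 31 reads at 5 positions for miR2111 with a score of 1.5. HSP82, a heat shock protein, had 25 reads at 4 positions for the predicted entry PC-5p-198778_11, the highest number among the 16 predicted entries. Every predicted event had a score of 3.5 or 4, and 69 of the 88 had a score of 4.

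A textbook target here is a symbol of the class long known for its miRNA family, such as SPL for miR156. The class was applied as a whole, so every ARF symbol listed for miR160 counted, ARF8 and ARF2 included. Whether each member is itself an established target was not checked. Of 578 named events, 249 were textbook targets, 43.1% (95% exact interval 39.0 to 47.2%), and they held 90.9% of the reads of named events and 89.2% of their divided reads. Textbook events had a median of 17 reads, and 67.1% of them had at least 10. The 329 other named events had a median of 2 reads, and 9.42% had at least 10. Of the 25 families with a class, 21 had at least 1 such event. The families miR167, miR398, miR408 and miR482 had none by symbol, and the miR482 targets included the locus identifier At5g05400, which was not annotated here. Classes were also planned for miR390 and miR2111, but neither family had a class in this count. Their named events fell under other named targets. A symbol pattern cannot match a locus identifier, so all 97 such events, Os05g0150500 with 667 reads for miR393 among them, fell under other named targets. Over the 481 events with a gene symbol the textbook share was 51.8% (95% exact interval 47.2 to 56.3%). The symbol patterns were written with the symbols in view, so these shares describe the table and test nothing.

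Reads were higher where the alignment score was lower, that is, where the best-matching listed entry matched better. An event's score is the lowest over its listed entries, whatever their small RNA level. For miR319 the lowest score came from gma-miR319n_L-1_1ss8CT, with 9.75 estimated small RNA reads over both libraries, against 105562 for ptc-miR319a. For miR171 it came from sly-miR171e_1ss19TA, with 4. In miR160 and miR172 the entry with most small RNA reads gave the lowest score. Over 657 events, Spearman's rho was -0.48 and Pearson's r of the score with log10 reads was -0.53. Events share reads, so these coefficients have no p-value. The 144 events with a score of at most 2 had a median of 19 reads and held 77.0% of summed reads. The 256 events between 2.5 and 3.5 had a median of 3 reads, and the 257 at the score of 4 a median of 2. Textbook targets made up 81.9%, 39.8% and 11.3% of these 3 score ranges. Within the textbook targets rho was -0.27 over 249 events, and among the other named targets it was -0.09 over 329.

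The relation had exceptions at both ends. All 34 events with a score of 0.5 or 1 were textbook targets with 15 to 510 reads. The 2 events with a score of 0 had 1 read each, in PRIN2 at 718 and At4g27290 at 2611, both for ptc-MIR481d-p5_2ss18AT24AC and with a divisor of 1. At the score of 4, reads ran from 1 to 306.

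**Figure D3:**
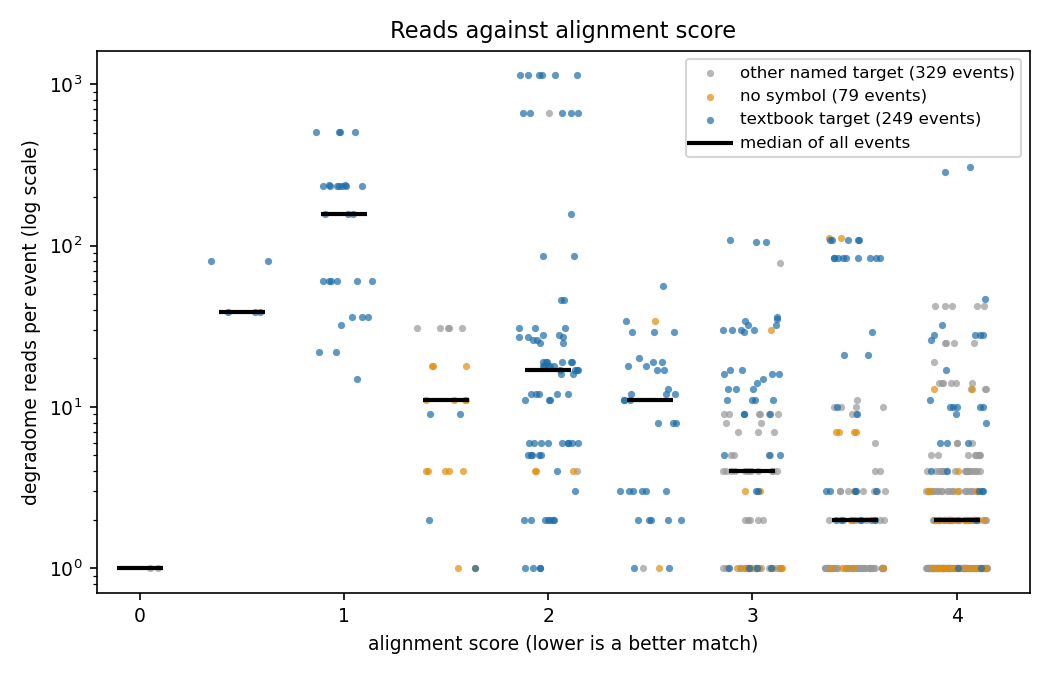
Degradome reads per event on a log scale (y axis) against alignment score (x axis, points spread sideways for visibility), coloured by textbook target, other named target and target without a symbol, with bars for the median of all events at each score. The median is 157 reads at a score of 1 and 2 reads at a score of 4, while both events at a score of 0 have 1 read.

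The place of the cut was counted in bases along the aligned range, from the end that faces the miRNA's 5′ end. The cut lay at base 10 in 87.9% of lines (851 of 968). It lay at base 9 in 62 lines and at base 11 in 55, and nowhere else. In all 62 lines at base 9 the aligned range was 1 base shorter than the miRNA, and in 53 of the 55 at base 11 it was 1 base longer. None of the 708 lines whose range had the length of the miRNA lay off base 10. The count ignores gaps in the alignment, so lines at base 9 or 11 need not be cut opposite another miRNA base. Whether the position was itself a criterion for listing a line is not stated in the sources used here.

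This fixed offset separates miRNA sequences that begin at different bases of the same site. A pair of events was called shifted when 2 sequences of a family overlapped with an offset of 1 to 4 bases and their events lay that many bases apart on a symbol. There were 44 such pairs, and in 29 of them, or 10 of the 15 distinct pairs of read numbers, one position had at least 5 times the reads of the other. In miR160, ptc-miR160e-5p_L+1R-1 begins 1 base before ptc-miR160a. At the 9 ARF18, ARF16 and ARF8 positions it had 6 reads at the following base, where ptc-miR160a had 235 to 237. In ARF17 it had 1 read at 1450 and at 1470, beside 80 for ptc-miR160a at 1449 and 1469. All 11 miR160 pairs had far more reads at the ptc-miR160a position.

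SPL targets differed among themselves in the register. The entry ptc-miR156g_R+1 begins 1 base before ghr-miR156a_R+1. SPL6 had 3 reads at the position of ptc-miR156g and 19 at that of ghr-miR156a, and SPL16 had 8 and 12. SPL3 and the SPL12 pair at 1912 and 1911 had 11 and 5 reads, and the SPL12 pair at 2686 and 2685 had 9 and 1. SPL6 was thus read mainly at the ghr-miR156a position and SPL12 mainly at the other. SPL3 shared both read numbers with SPL12, at a divisor of 2, so it is not a separate case. The SPL6 positions likewise shared their read numbers, at a divisor of 5.

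The entry mes-miR396c begins 3 bases before hbr-miR396a_R-3. GRF1 had 47 reads at the mes-miR396c position and 1 at the other. In 5 pairs of RD21A and RD21B the order turned, with 1 read at the mes-miR396c position and 4 at the other. The divisor was 10 at each of these positions, so the 5 pairs are not separate cases. For the calcium pumps, all 5 pairs had 42 reads at the ptc-miR3627a position and 2 at that of ptc-miR3627b_1ss7AG. RAP2-7 had 86 reads at the position of the main miR172 entries and 3 at that of ptc-MIR172d-p3, 4 bases before it. HSP82 had 25 reads for PC-5p-198778_11 and 1 for PC-5p-201355_11, which begins 1 base later. Because the same reads were listed at several positions, the 44 pairs held only 15 distinct pairs of read numbers, and 3 of these set the same 6 ARF reads against 235, 236 and 237. In 10 of the 15 the position of the entry with the higher small RNA level had more reads, by the salt as by the untreated library.

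**Figure D4:**
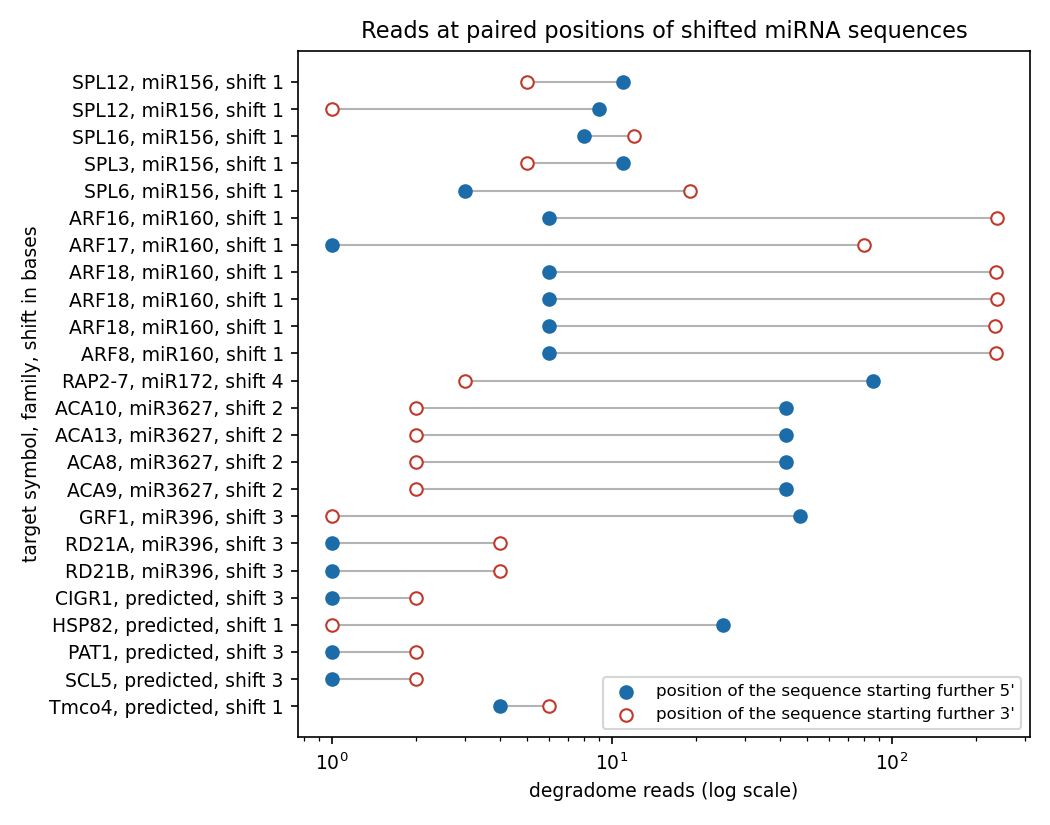
Reads on a log scale (x axis) at both positions of each distinct pair of read numbers within a symbol (y axis, by target symbol, family and shift). Points are filled for the sequence that starts further 5′ and open for that starting further 3′. A pair of read numbers shared by several symbols appears once for each symbol. The ARF pairs have 1 or 6 filled against 80 to 237 open reads, while SPL6 and SPL12 lie in opposite orders.

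Positions often shared 1 read number, within a symbol or between paralogues. Among the read numbers of at least 10 found in a family, 54 of 79 stood at more than 1 event. That count includes positions of 1 symbol and does not match TPB. By reads and TPB together, 55 of 86 read sets of at least 10 reads had 2 or more positions. Of these 55, 24 spanned 2 or more symbols. The ACA set covered 4 symbols, and the ATHB-14, ATHB-9 and HOX32 set covered 3. No shared number of at least 10 reads stood at the same position under different symbols.

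Few symbols had listed events of several families. Of 168 symbols with events of numbered families, 3 had events of 2 families, and all of these events had 1 read. MSSP2 was listed for miR172 at 9 positions from 1315 to 1914 and for miR5380 at 2380 and 2828. At1g62020 and Os09g0127800 were each listed for miR6427 at 2 positions and for miR5380 at 1. None had 2 families with at least 2 reads required. Including predicted entries, GLT1, a glutamate synthase, had 2 reads for miR396 at 3329 and 2 reads for PC-5p-34123_123 at 3459.

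Targets without a symbol made up 12.02% of events (79 of 657, 95% exact interval 9.64 to 14.8%) and 2.40% of summed reads. Their median was 2 reads, against 4 for events with a name, and 13 had at least 10 reads. The miR1444 family led them, with 111 reads at 1090 and 1101, 18 reads at 747, 1115 and 1119 and 11 reads at 1095, 1098, 1099 and 1104. In poplar miR1444 is known to act on polyphenol oxidase genes, and whether these targets are such genes was not tested. After miR1444 came 34 reads at 130 for miR6445, 30 at 1151 for miR6457, the single event of that family, and 13 at 448 and 451 for miR319. The miR530 family had 12 unnamed events of at most 4 reads and 6 in BHLH13.

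The 3 families with most degradome reads, miR393, miR160 and miR172, were not those with the most abundant miRNAs. RPM here is an entry's share of the estimated reads of all 205 entries of its small RNA library, times 1000000. The leading entry of miR393 stood at 543 RPM in the salt library and 664 RPM in the untreated library, with 1858 divided degradome reads. For ptc-miR166a the levels were 329717 and 459486 RPM, with 177 divided reads in its family. The miR1448 entry, at 80855 RPM in salt and 16164 RPM in untreated plants, had 226 divided reads, so abundant miRNAs also stood among the leading families. The miR159 family, at 22100 RPM in salt and 132998 RPM in untreated plants, had 10 divided reads, and miR408, at 6888 RPM in salt and 6136 RPM in untreated plants, had 0.75. The level of a family was taken from its most abundant entry with a degradome line. In miR169, miR171, miR481, miR482, miR6427 and miR6485 a more abundant entry had no line and was left out. Across the 43 families, the Spearman coefficient of divided reads with this level was 0.42 with the salt library and 0.42 with the untreated library. The points share the degradome library and the small RNA totals, and no p-value is given.

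Entries with hardly any small RNA reads also had lines. Of the 100 entries, 19 had under 10 estimated reads over both small RNA libraries. They alone accounted for 147 events, 22.4% of all, with a median of 1 read and a highest of 29, and for 1.78% of summed reads. The entry with most such events was gma-miR5380a_L-2R-4_1ss9AT, with 45 events of 1 to 5 reads and 0 and 4 estimated small RNA reads in the salt and untreated libraries.

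**Figure D5:**
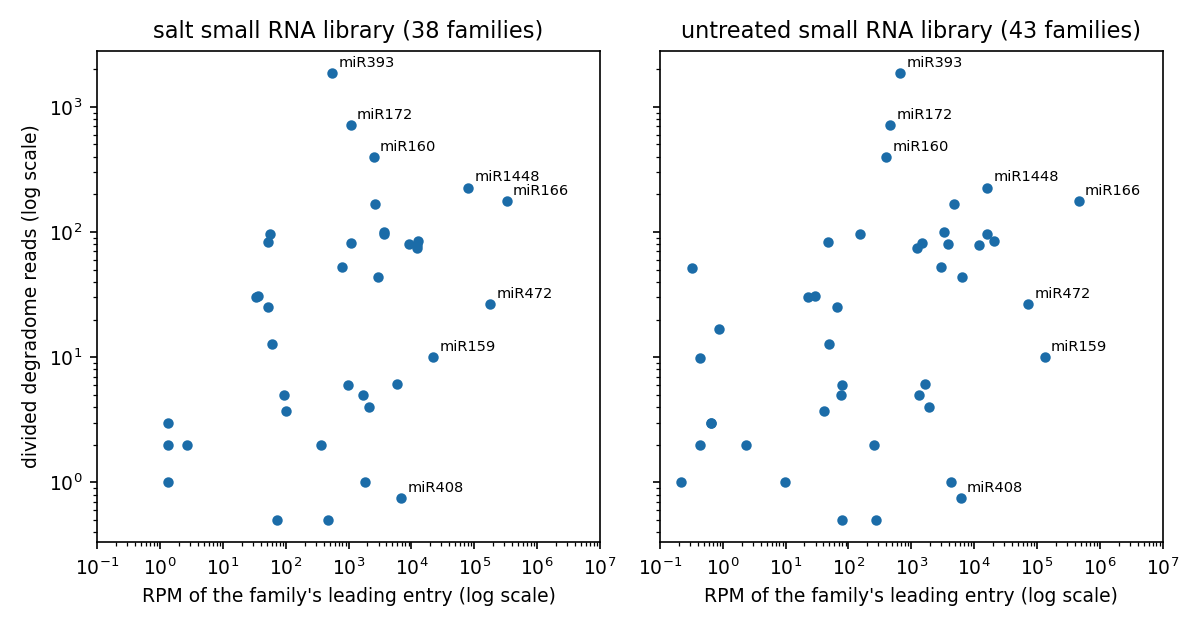
Divided degradome reads per family (y axis, log scale) against the RPM of the family's most abundant entry with a degradome line (x axis, log scale), in the salt library on the left and the untreated library on the right, with 5 families at 0 RPM in the salt library left out there. The miR393 family is highest at a middling level, while miR159 has 10 divided reads and miR472 has 26.6 at high levels.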

How the data were processed

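For every listed cut, the deposited degradome table holds a raw read count, a signal headed TPB, an alignment score, an aligned range and a cleavage position, per the file headers. The small RNA table gave estimated counts per mature sequence as the authors deposited them, some holding parts of reads. Total RNA was purified with a commercial kit and treated with DNase, per the labels' protocols, which describe small RNA library preparation only. Trimming, mapping and cleavage calling tools, the transcript set and the origin of the symbols are not given in the sources used here.

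Exact repeats were collapsed, and lines were joined into events. The divisor of a line is the highest TPB per read of the table divided by the line's own TPB per read, and divided reads are reads over the divisor. The divisor was found from the values and is not stated by the authors. The code was tested on simulated data. Shares carry 95% exact Clopper-Pearson intervals. Python 3.11.15, pandas 2.3.3, SciPy 1.17.1 and Matplotlib 3.10.9 were used. The small RNA libraries held 734026 (salt) and 4622984 (untreated) listed reads, so 1 read is 1.36 and 0.216 RPM. The full depth of the degradome library is not stated.

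Members, target classes and symbol patterns were chosen with earlier results of these data known. Named items are the 20 named and 10 unnamed events with most reads, the leading event of each larger family, symbols with several families, the 15 largest shared read numbers, events with a score of 0 and up to 4 leading members per class. Others, among them the shifted pairs, were chosen after their values were seen. Alternatives covered reads, score, symbol case, what counts as an event, divided reads and miRNA level.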

Additional observations from a re-analysis of the deposited data

How the results depend on the processing

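Of 44 alternatives, 20 stayed within their limits, which are 1.5 times for counts, the exact interval for shares and 0.1 for a coefficient. Some of them, such as divided reads and the small RNA minimum, were chosen after the data were seen. The events numbered 211 with at least 10 reads, 144 at a score of at most 2 and 281 at a score of at most 3. Names numbered 126 with at least 2 reads, 60 with at least 10, 35 at a score of at most 2 and 78 at a score of at most 3. Symbols with several families numbered 9 with predicted entries as families, and 0 with at least 2 or at least 10 reads or a score of at most 2 or 3. Shared read numbers were 96 from 2 reads, 15 from 50 reads and 0 where the position also had to match. The share of events without a symbol was 6.16% with at least 10 reads. The miR393 share was 45.7% over lines and 39.3% over divided reads. All 100% of lines lay within 1 base of base 10, counted along the aligned range. Among named events, textbook targets made up 90.9% of reads, 89.2% of divided reads and 84.3% of events with at least 10 reads, and they made up 51.8% of events with a gene symbol. Shifted pairs numbered 15 when each distinct pair of read numbers was counted once. Fewer events or lines pass each stricter limit by construction.

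The correlation of reads with score kept its sign under the 5 alternatives, from -0.50 to -0.45. No paired analysis was possible because each condition and the degradome have 1 library. Events with 1 read, 207 of 657, are at the limit of detection. Without transcript identifiers, paralogues and transcript forms of 1 gene cannot be told apart.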

Other observations

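Families known less widely also had listed events, at low read numbers. Whether these reads mark cuts guided by the listed miRNAs was not tested. KLCR3, a kinesin light chain-related protein, took all 10 events of hbr-MIR6485-p3_2ss18TG20TC, with 2 reads each and a divisor of 10. NUP98A and NUP98B, nucleoporins, took the 7 events of miR2199, with 1 read each. For mtr-miR5208a_L-2R-3_1ss10GA, which had 0 and 2 estimated small RNA reads in the salt and untreated libraries, the 21 events lay in 9 names, among them PPC1, a phosphoenolpyruvate carboxylase, with 3 reads, and TPL, the TOPLESS corepressor, with 1 read. CLPC1, a chloroplast chaperone, had up to 3 reads for ath-miR824-3p, whose 13 events all had the score of 4. UXS3, UXS5 and UXS6, which make UDP-xylose, shared 5 reads at 6 positions for miR164 with a divisor of 6.

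Symbols came in the styles of several organisms. Among the 35 locus identifiers, 22 had the form of Arabidopsis and 8 that of the japonica rice genome. SPBC2A9.03 and SPCC1223.01 have the form of fission yeast names, and OsI_032456, GSVIVT00023967001 and GSPATT00033675001 other forms. The symbols Tmco4 and TMCO4, and wdr48 and WDR48, differed in case only. Each such pair was listed for the same miRNA entries with the same reads and divisor, at different positions.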
